A study of Caenorhabditis elegans with 6 samples.

Results

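The genes described are 10 superoxide dismutase (sod-1 to sod-5), catalase (ctl-1 to ctl-3) and peroxiredoxin (prdx-2 and prdx-3, without prdx-6) genes of *C. elegans*. They were chosen by symbol from the 46936 genes of the count table, and all 10 were found and passed the filter on low counts. RNA was sequenced from whole animals of the N2 wild-type strain, with 3 biological replicates on MProPow2 plates and 3 on control plates that received water. MProPow2 is a batch of a milk fat globule membrane-containing protein powder with partially hydrolyzed protein, and it was spread on the plates as a 1 mg/mL solution. Both groups were kept at 20 °C on *E. coli* OP50 from the L1 larval stage until harvest as day 2 adults. From L4 on, both groups also received 5-FU at 10 µM as a block to offspring, and no library without it was analysed here.

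Superoxide is a by-product of respiration. Superoxide dismutases turn it into hydrogen peroxide, which catalases and peroxiredoxins then break down to water. SOD enzymes are sorted by metal and place. SOD-1 and SOD-5 are copper-zinc enzymes of the cytosol, SOD-4 is a copper-zinc enzyme that is secreted or membrane-bound, and SOD-2 and SOD-3 are manganese enzymes of the mitochondrial matrix. CTL-2 is the peroxisomal catalase and CTL-1 the cytosolic one. PRDX-2 is a cytosolic and PRDX-3 the mitochondrial peroxiredoxin, and both depend on thioredoxin to be reduced. Several of these genes, sod-3 above all, are known targets of the transcription factor DAF-16, which acts when insulin signalling is low.

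Mean expression in MProPow2-treated animals was 84.7% of control for sod-1, 83.0% for prdx-2, 89.4% for prdx-3 and 70.3% for ctl-2. It was 114% of control for sod-4 and 152% for sod-5, a gene of few reads. The values of sod-2, sod-3, ctl-1 and ctl-3 overlapped between the groups. None of the 10 genes was called at an adjusted p under 0.05 (edgeR quasi-likelihood test, Benjamini-Hochberg adjustment over all 14534 genes tested), against 3.01% of all genes tested (1.53% higher and 1.47% lower). The study set its threshold on the unadjusted p of DESeq2. With the unadjusted p of edgeR under 0.05, 3 of the 10 genes were lower and 0 higher, where 16.9% of all genes tested passed, 7.75% lower and 9.13% higher. At an adjusted p under 0.05, DESeq2 called 1 of the 10, ctl-2, and limma called 0. In 4 genes (sod-1, ctl-2, prdx-2 and prdx-3) all MProPow2 libraries lay below all control libraries, and in 2 (sod-4 and sod-5) all lay above. Over all genes tested, 23.3% were without overlap, 12.3% on the lower and 11.1% on the higher side. The median log2 fold change of the 10 genes was -0.08, beside -0.01 for all genes tested.

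**Figure D1:**
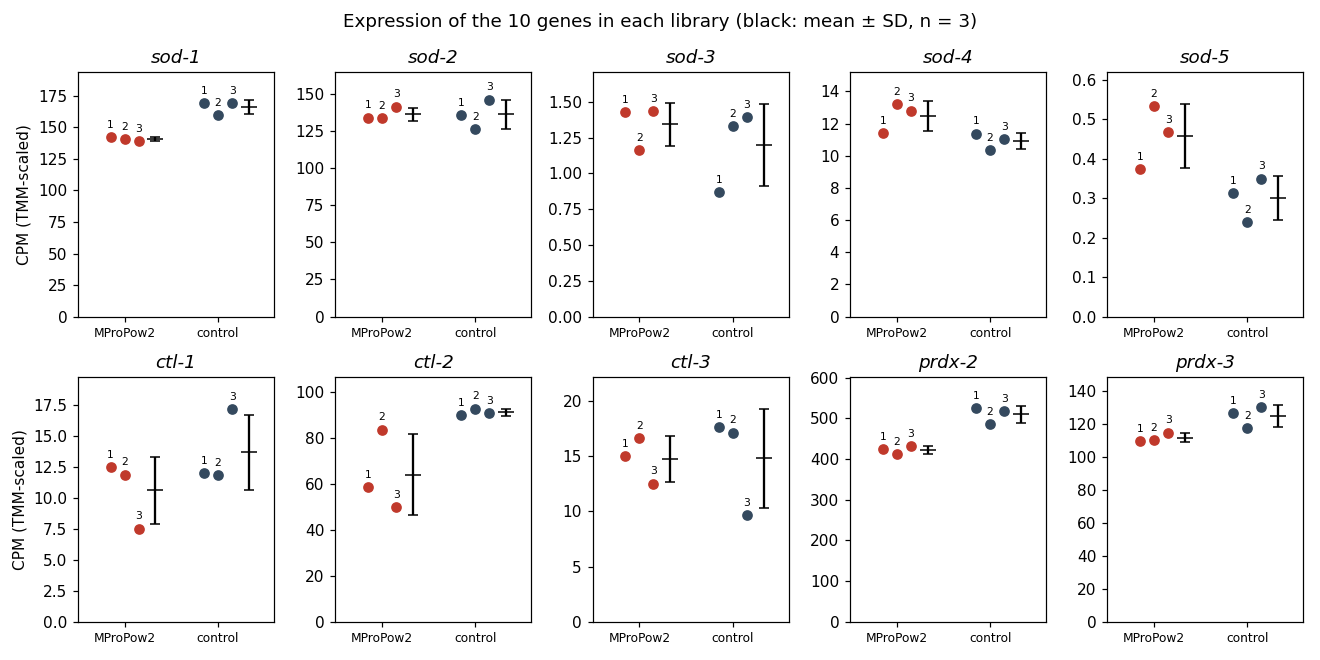
Expression in CPM (counts scaled for library size with TMM factors, axes from 0) of the 10 genes in each library, with MProPow2 libraries in red, control libraries in dark blue and replicate numbers above the points. Black bars give the mean ± SD of 3 libraries. The groups are apart with MProPow2 lower in sod-1, ctl-2, prdx-2 and prdx-3, and with MProPow2 higher in sod-4 and sod-5. In MProPow2 libraries ctl-2 is spread between 49.7 and 83.6 CPM.

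MProPow2 libraries held 29347851 to 32145772 counts and control libraries 28859395 to 37501098. The 10 genes together took 0.0888% to 0.0946% of the counts in MProPow2 libraries and 0.102% to 0.110% in control libraries. Values of 1 gene across libraries are given in CPM, which is counts scaled for library size with the TMM factors of edgeR. Levels of different genes are compared in the deposited FPKM, which are scaled for gene length. Log2 fold changes are of MProPow2 over control, and the 95% intervals are those of the fold, from the standard error of the edgeR fit. In whole animals, fewer cells of a type and less RNA per cell cannot be told apart. The smallest two-sided p that an exact permutation test can reach with 3 libraries in each group is 0.1.

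By FPKM, the peroxiredoxin prdx-2 was the highest of the 10 genes, at 552 ± 20.4 FPKM in MProPow2-treated animals and 661 ± 27.6 FPKM in control animals (SD, n = 3 each). After it came sod-1 (193 FPKM in MProPow2, 226 FPKM in control), sod-2 (168 FPKM in MProPow2, 166 FPKM in control), prdx-3 (143 FPKM in MProPow2, 159 FPKM in control) and ctl-2 (39.1 FPKM in MProPow2, 55.4 FPKM in control). The remaining genes were much lower, from sod-4 at 11.9 FPKM in MProPow2 and 10.4 FPKM in control down to sod-3 (1.505 FPKM in MProPow2, 1.33 FPKM in control) and sod-5 (0.64 FPKM in MProPow2, 0.42 FPKM in control). The order of the 10 means was the same in both groups. In MProPow2 libraries only the neighbours ctl-3 and ctl-1 overlapped in FPKM. In control libraries sod-2 overlapped with prdx-3, sod-4 with ctl-3, and ctl-3 with ctl-1.

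**Figure D2:**
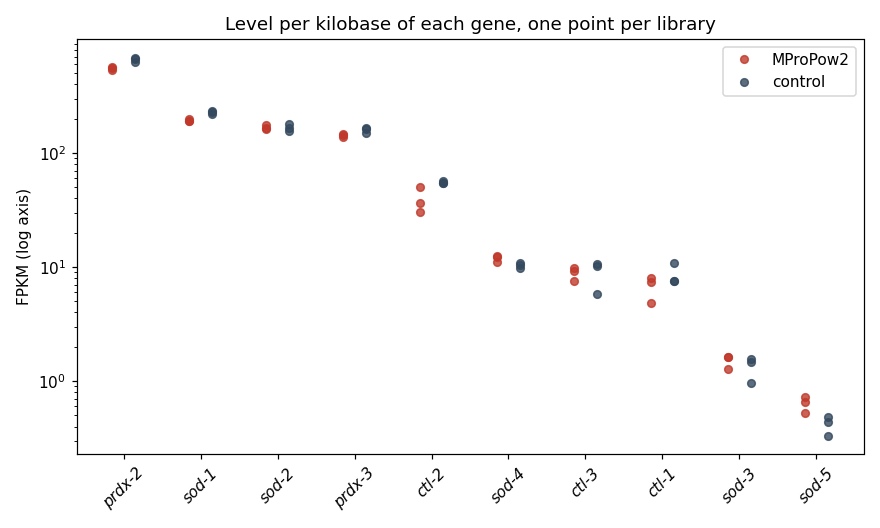
FPKM on a log axis for the 10 genes, ordered by their control mean, with 1 point per library and MProPow2 (red) left of control (dark blue). The levels span from 0.64 FPKM for sod-5 to 552 FPKM for prdx-2 as means in MProPow2, and the order of the means is the same in both groups.

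Among the copper-zinc enzymes, sod-1 (identifier 174141), the main cytosolic SOD, was at 142, 141 and 139 CPM in MProPow2 replicates 1, 2 and 3 and at 169, 160 and 169 CPM in control replicates 1, 2 and 3. The groups did not overlap, and the spread within MProPow2 was small, at a coefficient of variation of 1.21%. Its log2 fold change was -0.24 (standard error 0.077, 95% interval of the fold 0.75 to 0.95), with an unadjusted p of 0.011 and an adjusted p of 0.15 in edgeR. The gene is among the best covered of the family, with 4170 to 4592 reads in MProPow2 libraries and 4867 to 6000 in control libraries. The adjusted p stayed above the threshold under every alternative tried, between 0.14 and 0.45.

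The extracellular enzyme gene sod-4 (identifier 176336) went the other way. MProPow2 replicates 1, 2 and 3 held 11.39, 13.22 and 12.81 CPM, against 11.38, 10.37 and 11.01 CPM in control replicates 1, 2 and 3. Although no values overlapped, the gap between MProPow2 replicate 1 and control replicate 1 was only in the second decimal. The log2 fold change was 0.19 (standard error 0.12, 95% interval of the fold 0.94 to 1.39, adjusted p = 0.50 in edgeR). For sod-5 (identifier 173776), the minor cytosolic SOD, known for its expression in dauer larvae, the 3 MProPow2 libraries held 12, 16 and 14 reads and the 3 control libraries 9, 9 and 11. In CPM the MProPow2 values were 0.37, 0.53 and 0.47, and the control values 0.31, 0.24 and 0.35, without overlap. At this depth the 95% interval of the fold ran from 0.88 to 2.67 around a log2 fold change of 0.61 (adjusted p = 0.44 in edgeR), so a difference was not detectable by the fit.

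For the manganese enzyme genes the groups overlapped. The main mitochondrial SOD gene sod-2 (identifier 172632) was at 134, 134 and 141 CPM in MProPow2 replicates 1, 2 and 3 and at 136, 126 and 146 CPM in control replicates 1, 2 and 3. All 3 MProPow2 values lay within the range of the control libraries. The log2 fold change was 0.0026 (standard error 0.085), and the fold's 95% interval was 0.88 to 1.14 (adjusted p = 0.99 in edgeR). The inducible sod-3 (identifier 181748), widely used as a reporter of DAF-16 activity, was expressed at a low level. MProPow2 replicates 1, 2 and 3 held 1.43, 1.17 and 1.43 CPM (46, 35 and 43 reads), against 0.87, 1.33 and 1.40 CPM (25, 50 and 44 reads) in control replicates 1, 2 and 3. These ranges overlapped, and the lowest value was control replicate 1. The log2 fold change of sod-3 was 0.15 (standard error 0.25, 95% interval of the fold 0.75 to 1.65, adjusted p = 0.83 in edgeR), and it was -0.026 without control replicate 1.

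The shares of the SOD genes in the summed SOD level did not overlap between the groups, except that of sod-3. Within a library these shares depend on each other, so they are not separate results. The mean CPM of sod-2 itself was 100.2% of control, although its share was higher in MProPow2. In MProPow2 libraries, sod-1 made up 50.3% to 52.3% of the summed SOD FPKM and sod-2 44.2% to 45.9%. In control libraries the shares were 54.7% to 56.7% for sod-1 and 40.2% to 42.4% for sod-2. The ratio of sod-1 to sod-2 FPKM averaged 1.15 ± 0.05 in MProPow2 and 1.36 ± 0.06 in control (SD, n = 3 each, p = 0.1 in a two-sided exact permutation test). This ratio does not depend on how the libraries are scaled. The other 3 SOD genes together held only a few percent of the pool, of which sod-4 took 2.91% to 3.39% in MProPow2 libraries and 2.48% to 2.64% in control libraries.

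**Figure D3:**
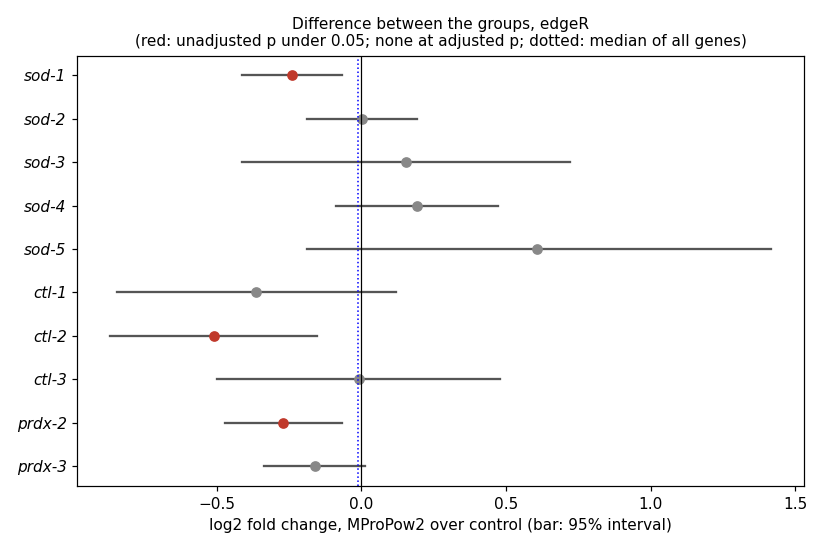
Log2 fold change of MProPow2 over control for the 10 genes from edgeR (points) with 95% intervals (bars). The intervals of sod-1, ctl-2 and prdx-2 (red, unadjusted p under 0.05) lie below 0, that of sod-2 is centred on 0.0026, and that of sod-5 is the widest. The dotted line is the median of all genes tested, -0.01.

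The catalase genes lie next to each other in the order ctl-2, ctl-1, ctl-3, with no other protein-coding gene between them in the RefSeq table of the WBcel235 assembly. They are close paralogs, and the sources used here do not give how reads matching several genes were counted, so the split among them is less certain than their sum. The peroxisomal ctl-2 (identifier 175085), the most abundant, was at 58.6, 83.6 and 49.7 CPM in MProPow2 replicates 1, 2 and 3. Control replicates 1, 2 and 3 held 89.8, 92.7 and 90.8 CPM. The 3 control libraries were thus nearly equal, with a coefficient of variation of 1.64%, while the MProPow2 libraries varied by 27.5%. All MProPow2 values lay below the control values, with replicate 2 closest to them. The mean was 63.996 ± 17.6 CPM in MProPow2 and 91.1 ± 1.49 CPM in control (SD, n = 3 each).

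The log2 fold change of ctl-2, -0.51 (standard error 0.16, 95% interval of the fold 0.55 to 0.90), was the lowest of the 10 genes. Its unadjusted p was 0.010 and its adjusted p 0.14 in edgeR's quasi-likelihood test, so it was not called. It was called by DESeq2 (adjusted p = 0.022), by edgeR with no filter on low counts (adjusted p = 6.3e-04) and by edgeR without MProPow2 replicate 2 (log2 fold change -0.75, adjusted p = 0.0063). Without MProPow2 replicate 3, the library with the lowest ctl-2, the log2 fold change was -0.36 (adjusted p = 0.086 in edgeR). Over all alternatives the adjusted p lay between 6.3e-04 and 0.37, and the log2 fold change between -0.75 and -0.36. The MProPow2 libraries stood in the same order in the summed CPM of 7 intestinal marker genes, which was 2174, 2612 and 1710 in MProPow2 replicates 1, 2 and 3 and 2636, 2581 and 2752 in control replicates 1, 2 and 3. In this sum MProPow2 replicate 2 lay within the range of the control libraries, and the same held for cpr-6 alone. There it was at 1817 CPM, against 1798, 1737 and 1883 CPM in control replicates 1, 2 and 3. In ctl-2, ges-1, ifb-2, act-5 and spl-1, MProPow2 replicate 2 lay below all control libraries. Most of the sum came from cpr-6, at a mean of 1473 CPM in MProPow2 and 1806 CPM in control. In 4 of the 7 markers (ges-1, ifb-2, act-5 and spl-1) all MProPow2 libraries lay below all control libraries, beside 12.3% of all genes tested. In elt-2, elt-7 and cpr-6 the groups overlapped. The part of these markers in the ctl-2 result was not tested.

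The cytosolic ctl-1 (identifier 259738) was at 12.5, 11.9 and 7.54 CPM in MProPow2 replicates 1, 2 and 3, against 12.04, 11.8 and 17.2 CPM in control replicates 1, 2 and 3. The groups overlapped, with MProPow2 replicate 3 the lowest and control replicate 3 the highest (log2 fold change -0.36, standard error 0.22, adjusted p = 0.45 in edgeR). Without control replicate 3 the log2 fold change was -0.16. For ctl-3 (identifier 175086) the MProPow2 values were 14.99, 16.6 and 12.5 CPM and the control values 17.6, 17.1 and 9.62 CPM. Its log2 fold change of -0.0087 (standard error 0.22, 95% interval of the fold 0.71 to 1.40, adjusted p = 0.99 in edgeR) changed sign under 10 of the 15 alternatives. It was -0.23 without control replicate 3, the library in which ctl-1 was highest and ctl-3 lowest. The sum of the 3 catalases was 86.1, 112 and 69.8 CPM in MProPow2 replicates 1, 2 and 3, all below the 118 to 122 CPM of the control libraries, and its mean was 74.7% of control. Since ctl-2 makes up most of this sum, it carries no separate evidence.

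**Figure D4:**
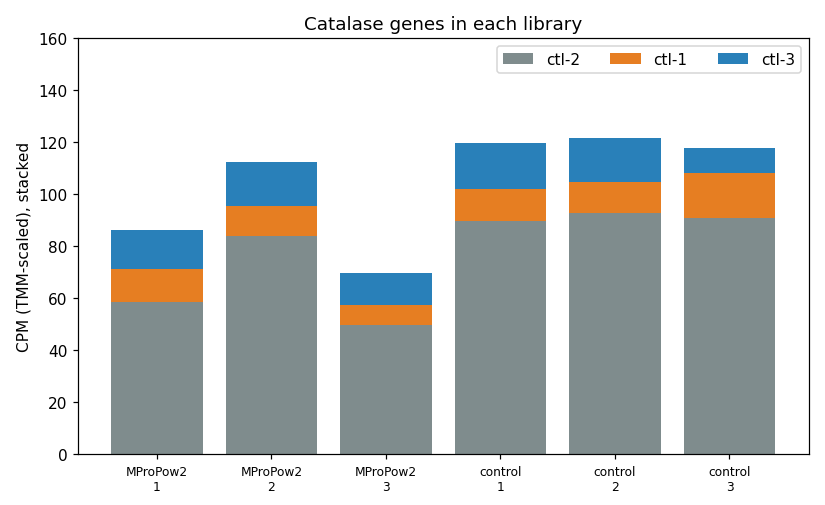
CPM of ctl-2 (grey), ctl-1 (orange) and ctl-3 (blue) stacked for each library, MProPow2 libraries on the left and control libraries on the right. The sum is between 69.8 and 112 CPM in MProPow2 libraries and between 118 and 122 CPM in control libraries, and in control replicate 3 ctl-1 is high (17.2 CPM) where ctl-3 is low (9.62 CPM).

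Of the peroxiredoxins, prdx-2 (identifier 266858) was at 424, 413 and 432 CPM in MProPow2 replicates 1, 2 and 3 and at 525, 485 and 519 CPM in control replicates 1, 2 and 3. No values overlapped. The log2 fold change was -0.27 (standard error 0.090, 95% interval of the fold 0.72 to 0.95, unadjusted p = 0.014 and adjusted p = 0.16 in edgeR), and it kept its direction under all alternatives, between -0.30 and -0.20. The adjusted p was above the threshold in each, the lowest being 0.086 without MProPow2 replicate 3. The gene had 12389 to 13668 reads per MProPow2 library and 15089 to 18195 per control library. For the mitochondrial prdx-3 (identifier 175573), MProPow2 replicates 1, 2 and 3 held 110, 110 and 115 CPM, and control replicates 1, 2 and 3 held 127, 118 and 130 CPM. The groups were just apart, and the log2 fold change was -0.16 (standard error 0.078, 95% interval of the fold 0.79 to 1.01, adjusted p = 0.34 in edgeR).

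The share of prdx-2 in the summed FPKM of prdx-2 and prdx-3 was 79.2% to 79.7% in MProPow2 libraries and 80.2% to 80.8% in control libraries (two-sided exact permutation p = 0.1). The sum of these 2 genes was at 695 ± 24.6 FPKM in MProPow2 and 820 ± 35.1 FPKM in control (SD, n = 3 each), or 84.7% of control. It leaves out the peroxiredoxin gene prdx-6, which was at 41.5 ± 4.71 FPKM in MProPow2 and 45.9 ± 0.87 FPKM in control. The summed SOD level was at 375 ± 8.33 FPKM in MProPow2 and 405 ± 18.5 FPKM in control, or 92.5% of control. In both sums the highest MProPow2 library was below the lowest control library, with p = 0.1 each in a two-sided exact permutation test. In all, 30 sums, shares and ratios were tested this way, 6 of them sums in CPM that repeat those in FPKM. Of the 30, 21 reached this smallest p, with a Benjamini-Hochberg adjusted p of 0.14 over the 30 exact permutation tests. The shares and ratios reuse the genes of these sums, and the shares of a family depend on each other. The 30 tests are thus not independent, and the 21 are not separate results.

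Genes that work with these enzymes were read from 9 lists of 90 genes. For comparison, 9.13% of all genes tested were higher and 7.75% lower at an unadjusted p under 0.05 in edgeR. At an adjusted p under 0.05, edgeR called 1.53% higher and 1.47% lower. DESeq2 called 729 of 15772 genes, 341 of them higher. The list of the thioredoxin system, which supplies peroxiredoxins with electrons, also held prdx-6, sesn-1 and msra-1, which are neither thioredoxins nor their reductases. Of its 10 tested genes, 0 were called, and the median log2 fold change was 0.05. At an unadjusted p under 0.05 in edgeR 1 was higher (sesn-1) and 1 lower (msra-1), and DESeq2 called 1 higher. The thioredoxin reductase gene trxr-1 was at 146 ± 14.9 CPM in MProPow2 and 152 ± 2.41 CPM in control (SD, n = 3 each, adjusted p = 0.82 in edgeR). The neuronal thioredoxin gene trx-1 was at 0.45 ± 0.20 CPM in MProPow2 and 0.27 ± 0.07 CPM in control (adjusted p = 0.48 in edgeR). The gene of smallest p in the list was sesn-1, which encodes sestrin, at 39.4 ± 1.31 CPM in MProPow2 and 29.6 ± 3.12 CPM in control, without overlap (log2 fold change 0.41, adjusted p = 0.071 in edgeR). It was called by DESeq2 (adjusted p = 0.033), by edgeR with no filter (0.029) and by edgeR without MProPow2 replicate 3 (0.039).

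Among 15 genes of the glutathione system, 0 were called by edgeR and 1 was called lower by DESeq2. At an unadjusted p under 0.05 in edgeR 0 were higher and 3 lower, beside 9.13% and 7.75% of all genes tested. The median log2 fold change of this list was -0.06. Its gene of smallest p, the glutathione peroxidase gene gpx-2, was at 70.2 ± 4.49 CPM in MProPow2 and 82.1 ± 1.03 CPM in control (adjusted p = 0.18 in edgeR). None of 6 genes of NADPH supply was called by edgeR either, 1 being lower at an unadjusted p, and DESeq2 called 1 lower. The gene of smallest p was idh-1, the cytosolic isocitrate dehydrogenase gene, at 255 ± 28.1 CPM in MProPow2 and 331 ± 4.37 CPM in control (log2 fold change -0.38, adjusted p = 0.089 in edgeR), and it was called by DESeq2 (adjusted p = 0.015) and by edgeR with no filter (0.027). Of 11 genes of peroxisome biogenesis, the organelle of CTL-2, 10 had a log2 fold change below 0. The median was -0.10, beside -0.01 for all genes tested. In edgeR 0 were called and 2 were lower at an unadjusted p, beside 7.75% of all genes tested, and DESeq2 called 1 lower. The lowest p was that of prx-11, at 7.59 ± 1.88 CPM in MProPow2 and 11.4 ± 0.85 CPM in control (adjusted p = 0.13 in edgeR), and it was called by DESeq2 (adjusted p = 0.034) and by edgeR with no filter (0.020) and without MProPow2 replicate 2 (0.043). Heme peroxidases use hydrogen peroxide, and dual oxidases make it. Of 8 genes of these kinds, edgeR gave 3 higher at an unadjusted p, beside 9.13% of all genes tested. None of the 8 was called by edgeR, and DESeq2 called 1 higher. Their median log2 fold change was 0.21. The peroxidase gene mlt-7, needed for cuticle molting, was at 19.9 ± 3.57 CPM in MProPow2 and 13.1 ± 0.33 CPM in control (log2 fold change 0.61, adjusted p = 0.058 in edgeR). It was called by DESeq2 (adjusted p = 0.0091) and by edgeR with upper-quartile scaling (0.045), with no filter (0.0036) and without MProPow2 replicate 2 (0.017) or 3 (0.035). None of 6 tested metal-handling genes passed at either threshold in edgeR or was called by DESeq2, and the smallest p among them was that of the metal transporter gene smf-3, at 2.54 ± 0.21 CPM in MProPow2 and 3.33 ± 0.38 CPM in control.

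Of 14 genes that regulate these enzymes, edgeR called 1 lower and 0 higher, beside 1.47% and 1.53% of all genes tested. The one called was pqm-1, a transcription factor that responds to oxidative stress, which fell to 18.5, 25.7 and 18.8 CPM in MProPow2 replicates 1, 2 and 3, against 34.2, 36.5 and 35.5 CPM in control replicates 1, 2 and 3. The groups did not overlap (log2 fold change -0.75, standard error 0.14, adjusted p = 0.024 in edgeR). It was not called without MProPow2 replicate 1 or control replicate 2 or 3, with adjusted p from 0.093 to 0.099, nor by limma. The expression of daf-16 itself was 110 ± 6.07 CPM in MProPow2 and 132 ± 13.1 CPM in control (log2 fold change -0.26, unadjusted p = 0.021 and adjusted p = 0.20 in edgeR), with overlap between the groups. For skn-1, the other main regulator of oxidative stress genes, it was 170.0 ± 21.2 CPM in MProPow2 and 171 ± 23.8 CPM in control (log2 fold change -0.01, with a sign that depends on the scaling, adjusted p = 0.98 in edgeR).

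Known targets of DAF-16 outside the family had both signs. Of 7 tested, 1 was called higher and 0 lower, beside 1.53% and 1.47% of all genes tested. At an unadjusted p in edgeR 2 were higher and 3 lower, beside 9.13% and 7.75%. The groups were without overlap in 2 on the higher and 3 on the lower side, beside 11.1% and 12.3% of all genes tested. The metallothionein gene mtl-1 rose to 3.10, 5.80 and 8.57 CPM in MProPow2 replicates 1, 2 and 3, against 1.46, 1.65 and 1.78 CPM in control replicates 1, 2 and 3 (log2 fold change 1.83, standard error 0.33, adjusted p = 0.023 in edgeR). It was not called without control replicate 1, 2 or 3 (adjusted p from 0.0573 to 0.095), nor by limma. The targets of SKN-1 also had both signs, with 1 of 10 called higher and 1 called lower. At an unadjusted p under 0.05 in edgeR, 4 were higher and 1 lower, beside 9.13% and 7.75% of all genes tested. Their median log2 fold change was 0.31. The nitrilase gene nit-1 rose to 10.5 ± 1.07 CPM in MProPow2, against 5.02 ± 0.50 CPM in control (SD, n = 3 each, log2 fold change 1.06, adjusted p = 0.0078 in edgeR), and it was not called without control replicate 2 (adjusted p = 0.058) or by limma with no filter. The cadmium-responsive cdr-2 fell to 12.2 ± 1.49 CPM in MProPow2, against 26.95 ± 0.91 CPM in control (log2 fold change -1.15, adjusted p = 0.0019 in edgeR), and it was called under each of the 15 alternatives. The glutathione S-transferase gene gst-4, the usual reporter of SKN-1, was at 5.85 ± 1.01 CPM in MProPow2 and 6.90 ± 0.97 CPM in control (adjusted p = 0.57 in edgeR). The glutathione synthesis gene gcs-1 was at 102 ± 4.84 CPM in MProPow2 and 101 ± 2.48 CPM in control (adjusted p = 0.93 in edgeR).

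**Figure D5:**
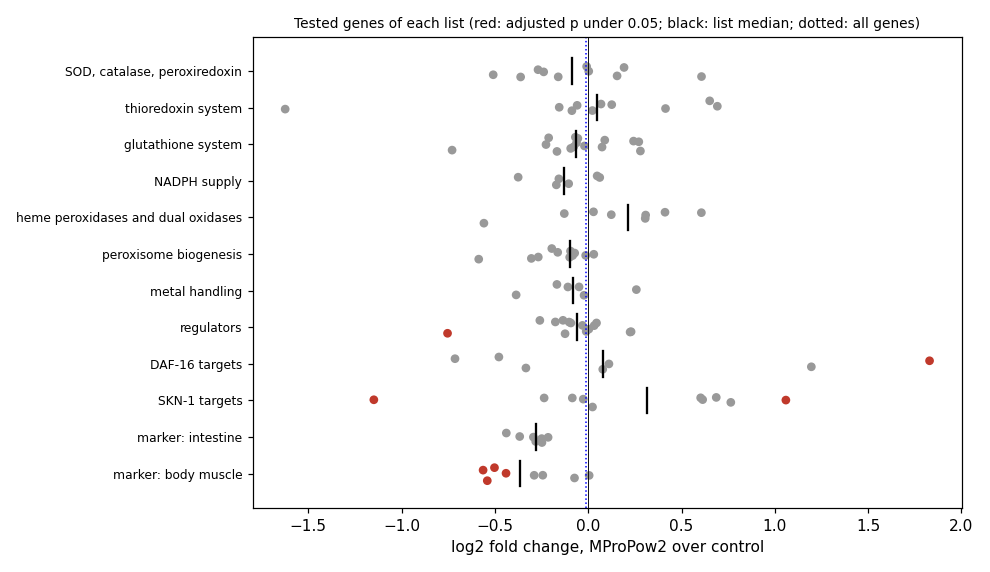
Log2 fold change of MProPow2 over control for each tested gene of the family, of 9 lists of related genes, and of the intestinal and body muscle markers, with called genes in red and list medians as black bars. The 10 family genes hold no called gene, 4 of 8 body muscle markers are called lower (1.47% of all genes tested), and all 7 intestinal markers lie below 0.

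Markers of single tissues were read in the same fit. All 7 intestinal markers found had a log2 fold change below 0, with a median of -0.28, beside -0.01 for all genes tested. In edgeR 4 of them were lower at an unadjusted p, beside 7.75% of all genes tested, and 0 were called. DESeq2 called 1 lower. Of 8 body muscle markers, tnt-2, lev-11, unc-27 and mlc-1 were called lower and 0 higher, beside 1.47% of all genes tested called lower and 1.53% higher. The list median was -0.37, and the summed CPM was 836 to 938 in MProPow2 libraries and 1103 to 1214 in control libraries. Each of these 4 calls was lost without MProPow2 replicate 1 or control replicate 2 or 3 (adjusted p from 0.052 to 0.178), 3 of them also without control replicate 1 and 2 without MProPow2 replicate 2. With a replicate block lev-11, unc-27 and mlc-1 were not called (adjusted p from 0.059 to 0.123 in edgeR), and mlc-1 was not called with upper-quartile scaling (0.065) or with at least 10 counts in every library (0.054). DESeq2 called all 4, and limma 0 or 1 of them depending on the pseudocount. The medians of neuron, oocyte, germline and epidermis markers were -0.01, -0.08, -0.02 and -0.13, with 0 called in each by edgeR or DESeq2 (1 neuron and 1 epidermis gene lower at an unadjusted p in edgeR). Their genes of smallest p were egl-21, perm-2, htp-3 and col-19, and that of the intestinal list was ifb-2, which was called by DESeq2 (adjusted p = 0.021) and by edgeR with no filter (0.0035) and without MProPow2 replicate 2 (0.022). Of the 8 sperm markers only 2 passed the filter, with msp-19 of smaller p, and their summed level stayed under 5 CPM in all libraries. The part of these markers in the values of sod-1, ctl-2, prdx-2 and prdx-3 was not tested.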

How the data were processed

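Poly-A RNA of 6 whole-animal samples was sequenced. Paired-end reads had been aligned by the authors using HISAT2 2.0.5, and raw counts of each gene from featureCounts were deposited. FPKM were also deposited by the authors, and they followed from the counts by gene and library scaling alone in 9275 genes checked. Build, strand setting and the treatment of reads matching several genes: not given in the sources used here. No coordinates are printed, and overlapping genes or close paralogs may share reads. RefSeq names were matched for 46920 identifiers, and 0 columns lacked a sample.

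The test on the counts used edgeR 4.0.16 and R 4.3.3 (filterByExpr with a minimum count of 10, TMM, quasi-likelihood F test without covariates). The Benjamini-Hochberg adjustment ran over 14534 genes, with a threshold of 0.05, and the common biological coefficient of variation was 13.9%. Depth and 3 replicates set the precision. No 2 replicates were alike within sampling noise (chi-square over degrees of freedom 14.9 or more). Alternatives were RLE or upper-quartile scaling, other count filters, DESeq2 1.42.0, a replicate block, leaving out each library, and limma 3.58.1 on log2(FPKM + 1) or log2(FPKM + 0.1), with or without a minimum mean FPKM of 0.1. The methods were also run on simulated data, in which the changed genes differed by more than any of the 10 members did here. Recovery of differences as small as those of the members was not tested. Members and lists were chosen with earlier results of these data known. Named are all 10 members, of each list the genes called (at most 4) or else that of smallest p, and daf-16, skn-1, trx-1, trxr-1, gcs-1 and gst-4. Of the listed genes, 1 marker (opt-2) was not found by symbol.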

Additional observations from a re-analysis of the deposited data

How the results depend on the processing

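Of 149 values of the 10 genes under 15 alternatives, 130 kept their direction and side of the threshold, 3 (all of ctl-2) passed it, and 16 changed sign, all in sod-2, sod-3 and ctl-3. The number of the 10 genes called was 1 with no filter and with DESeq2, and 0 to 1 when a replicate was left out. Over all genes, 437 were called (51.0% of them higher), against 1226 with no filter, 729 with DESeq2, 192 with a replicate block, 97, 148 and 45 with limma on log2(FPKM + 1), log2(FPKM + 0.1) and log2(FPKM + 1) with no filter, and 72 to 1044 when a replicate was left out. The share of higher calls was 63.6% of 360 with upper-quartile scaling, 26.7% to 44.6% with limma, 23.6% without control replicate 2, 36.6% without control replicate 1, 29.9% without MProPow2 replicate 2, and up to 60.1% without MProPow2 replicate 3. The cause was not tested. Same-numbered samples had correlations of -0.048, 0.096 and -0.12, and differently numbered ones lay between -0.20 and 0.19, so no shared signal followed the numbers. This cannot show whether same-numbered samples were raised together. The replicate block called 0 of the 10 genes. The log2 fold change of ctl-3 was 0.00144 with RLE, 0.063 with upper-quartile scaling, 0.00166 with at least 10 counts in every library, 0.029 with a replicate block, 0.033 and 0.041 with limma at pseudocounts of 1 and 0.1, and -0.23 to 0.13 when a replicate was left out. That of sod-2 was -2.3e-04 with no filter, -0.00649 with DESeq2 and -0.047 to 0.067 when a replicate was left out, and that of sod-3 -0.026 to 0.28. For skn-1 it was 6.8e-04 with RLE, 0.054 with upper-quartile scaling, 1.3e-04 and 1.9e-04 with limma, and -0.12 to 0.049 when a replicate was left out. For trxr-1 it was 0.0078 with upper-quartile scaling and -0.12 to 0.020 when a replicate was left out, and in such fits for gcs-1 -0.011 to 0.058 and for msp-19 -0.020 to 1.57. Low counts limit sod-3 (25 to 50 reads) and sod-5 (9 to 16 reads).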

Other observations

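In the list of the thioredoxin system, msra-1, which encodes a methionine sulfoxide reductase, was named after its values were seen. It was at 166, 178 and 17.4 CPM in MProPow2 replicates 1, 2 and 3, against 382, 361 and 371 CPM in control replicates 1, 2 and 3. Its log2 fold change of -1.62 was not called by edgeR (adjusted p = 0.20), and it was -1.11 and called without MProPow2 replicate 3 (adjusted p = 3.7e-06). DESeq2 gave an adjusted p of 0.39, and over all alternatives, edgeR with no filter and limma included, it lay between 2.4e-11 and 0.44.

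The sum of ctl-1 and ctl-3, also looked at after their values were seen, was 27.5, 28.5 and 20.0 CPM in MProPow2 replicates 1, 2 and 3 and 29.7, 28.96 and 26.8 CPM in control replicates 1, 2 and 3. In control replicate 3 this sum was close to that of the other control libraries, although ctl-1 and ctl-3 each stood apart there in opposite directions.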
